A study of Homo sapiens with 6 samples.

Results

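The 10 genes described here are the eIF2 alpha kinases EIF2AK1, EIF2AK2, EIF2AK3 and EIF2AK4, the transcription factor ATF4, and 5 genes that ATF4 is known to switch on, ATF3, DDIT3, PPP1R15A, TRIB3 and CHAC1. They were chosen by gene symbol, and each symbol matched 1 row of a table of 60671 genes. The RNA came from HaCaT, a spontaneously immortalised line of human keratinocytes, with the genotype labelled WT. The 3 IFN-beta libraries came from cells given 160 ng/mL interferon beta for 24 h in serum-free high-glucose DMEM, and the 3 control libraries from cells kept as long in that medium without it. All 6 libraries are therefore from serum-deprived cells of a single line, and the comparison asks what interferon beta changed on that background.

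The integrated stress response starts when a kinase phosphorylates the alpha subunit of eIF2, the factor that brings the initiator tRNA to the ribosome. Most protein synthesis then slows, while the mRNA of ATF4, which carries upstream open reading frames, is translated more. EIF2AK1 (HRI) is known to respond to haem shortage and to mitochondrial stress, EIF2AK2 (PKR) to double-stranded RNA, EIF2AK3 (PERK) to unfolded proteins in the endoplasmic reticulum and EIF2AK4 (GCN2) to uncharged tRNA. EIF2AK2 is also a textbook interferon-stimulated gene. The values below are RNA levels, and neither eIF2 phosphorylation nor ATF4 protein was analysed here.

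Promoter windows of 3 members are printed because they hold a motif tied to one of these inputs. The windows run from 250 bases before to 50 bases after a RefSeq start on GRCh38.p14, and 14 such windows covered 9 of the 10 genes, all but EIF2AK1. The core of the interferon-stimulated response element was searched as GAAANNGAA on both strands. Of the 14 windows only that of EIF2AK2 held it, against 8.11% of all 35116 windows. By gene it stood in 1 of 9. Some of the 14 windows belong to the same gene and overlap, and a single match cannot show a difference from the share over all windows. The C/EBP-ATF element, to which ATF4 and C/EBP dimers are known to bind, was searched as TGATGNAA on both strands. Of the 14 windows it stood in that of CHAC1 and in the ATF3 window printed below, against 3.62% of all windows. By gene it stood in 2 of 9, again too few to compare with that share. The other ATF3 window, chr1:212614768-212615067, did not hold it. The motifs do not overlap each other in these windows and are given in capitals, 5′ to 3′ on the strand of the gene.
EIF2AK2, chr2:37156931-37157230, minus strand: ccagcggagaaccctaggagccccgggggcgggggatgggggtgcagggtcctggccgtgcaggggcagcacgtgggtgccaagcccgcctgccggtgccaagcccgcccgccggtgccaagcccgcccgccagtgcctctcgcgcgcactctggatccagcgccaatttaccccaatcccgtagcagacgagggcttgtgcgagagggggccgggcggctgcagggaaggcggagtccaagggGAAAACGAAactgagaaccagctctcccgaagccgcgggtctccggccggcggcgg
ATF3, chr1:212565157-212565456, plus strand: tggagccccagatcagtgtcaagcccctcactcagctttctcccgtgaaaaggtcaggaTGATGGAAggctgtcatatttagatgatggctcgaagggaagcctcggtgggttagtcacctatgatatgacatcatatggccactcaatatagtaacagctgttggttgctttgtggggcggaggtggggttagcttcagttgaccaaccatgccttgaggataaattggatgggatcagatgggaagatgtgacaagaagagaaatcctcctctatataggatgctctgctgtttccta
CHAC1, chr15:40953221-40953520, plus strand: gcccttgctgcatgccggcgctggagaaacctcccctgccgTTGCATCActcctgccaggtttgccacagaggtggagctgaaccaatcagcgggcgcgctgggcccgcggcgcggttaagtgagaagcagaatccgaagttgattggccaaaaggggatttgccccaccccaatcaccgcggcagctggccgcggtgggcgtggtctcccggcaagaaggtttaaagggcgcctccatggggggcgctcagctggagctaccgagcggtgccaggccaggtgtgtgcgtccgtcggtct
In EIF2AK2 the capitals span bases -6 to 3 around the start, there being no base 0. In ATF3 they span bases -191 to -184 on the strand of the gene, and in CHAC1 bases -209 to -202, read as the motif on the opposite strand. The matches describe letters in these windows and not binding.

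Library depth, inferred from the steps of the deposited FPKM, ran from 25832158 to 30594527 reads. Values are FPKM, reads scaled by gene length and library depth. Changes were tested with limma on log2(FPKM + 0.5) over 15163 genes with a mean of at least 0.5 FPKM, with Benjamini-Hochberg adjustment over all of them and a threshold of 0.05. The test called 42.4% of the tested genes, 22.5% higher and 19.9% lower with IFN-beta, and the groups did not overlap for 54% of them, so a call in this comparison is common. The response to interferon was present in every IFN-beta library: the 5 interferon-induced genes used as a check rose, led by the antiviral GTPase MX1 (680 ± 15.7 FPKM in IFN-beta cells and 4.57 ± 0.204 FPKM in control cells, SD, n = 3 each), IFIT1 and ISG15. Keratinocyte markers summed to between 3353 and 3391 FPKM in IFN-beta libraries and between 3384 and 3658 FPKM in control libraries, with all 7 expressed. Of these 7, KRT17, KRT6A and TP63 were called higher, and KRT5 (965 FPKM in IFN-beta cells and 1374 FPKM in control cells) and PERP lower. Of the 6 fibroblast, 6 leukocyte, 3 endothelial and 3 melanocyte markers, 1 in each list passed the filter on low values. These lists summed to at most 4.05 FPKM in any library, and DCN, LYZ, MLANA and TYR were among the markers at 0. The endothelial sum was 2.12 to 2.21 FPKM in IFN-beta libraries and 0.696 to 0.964 FPKM in control libraries, with CDH5 called higher (limma adjusted p = 2.73e-04). The fibroblast sum was 2.55 to 3.27 FPKM in IFN-beta libraries and 1.73 to 2.47 FPKM in control libraries, with COL1A1 called higher (adjusted p = 0.0391). The part of these differences in the results was not tested. Mitochondrially encoded genes took 4.53% to 5.01% of reads in IFN-beta libraries and 6.14% to 6.63% in control libraries. Control replicate 3 stood somewhat apart: the chi-square per degree of freedom of its reads was 10.2 against control replicate 1 and 6.52 against control replicate 2, where the other pairs of replicates lay between 3.01 and 4.01. Without it the same number of members was called, 6 of 10. Values without it are given for some of the genes and lists where they differ.

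All 10 members passed the filter on low values. Of these, 5 rose, 1 fell and 4 did not pass the test, where 22.5% of all tested genes rose and 19.9% fell. The groups did not overlap for 7 of the 10, 6 of them higher with IFN-beta, where the share over all tested genes was 28.6% higher and 25.4% lower. The 4 kinases had a median log2 change of 0.01, equal to the median of 0.01 over all tested genes, with 1 kinase higher and 1 lower. The 5 ATF4 targets had a median log2 change of 0.68, with 4 of 5 higher, and this median lay between 0.63 and 0.73 under the other scalings tried. ATF4 itself lay at 0.06. As in any bulk sample, a change in RNA per cell cannot be told apart from a change in the share of cells that express the gene.

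**Figure D1:**
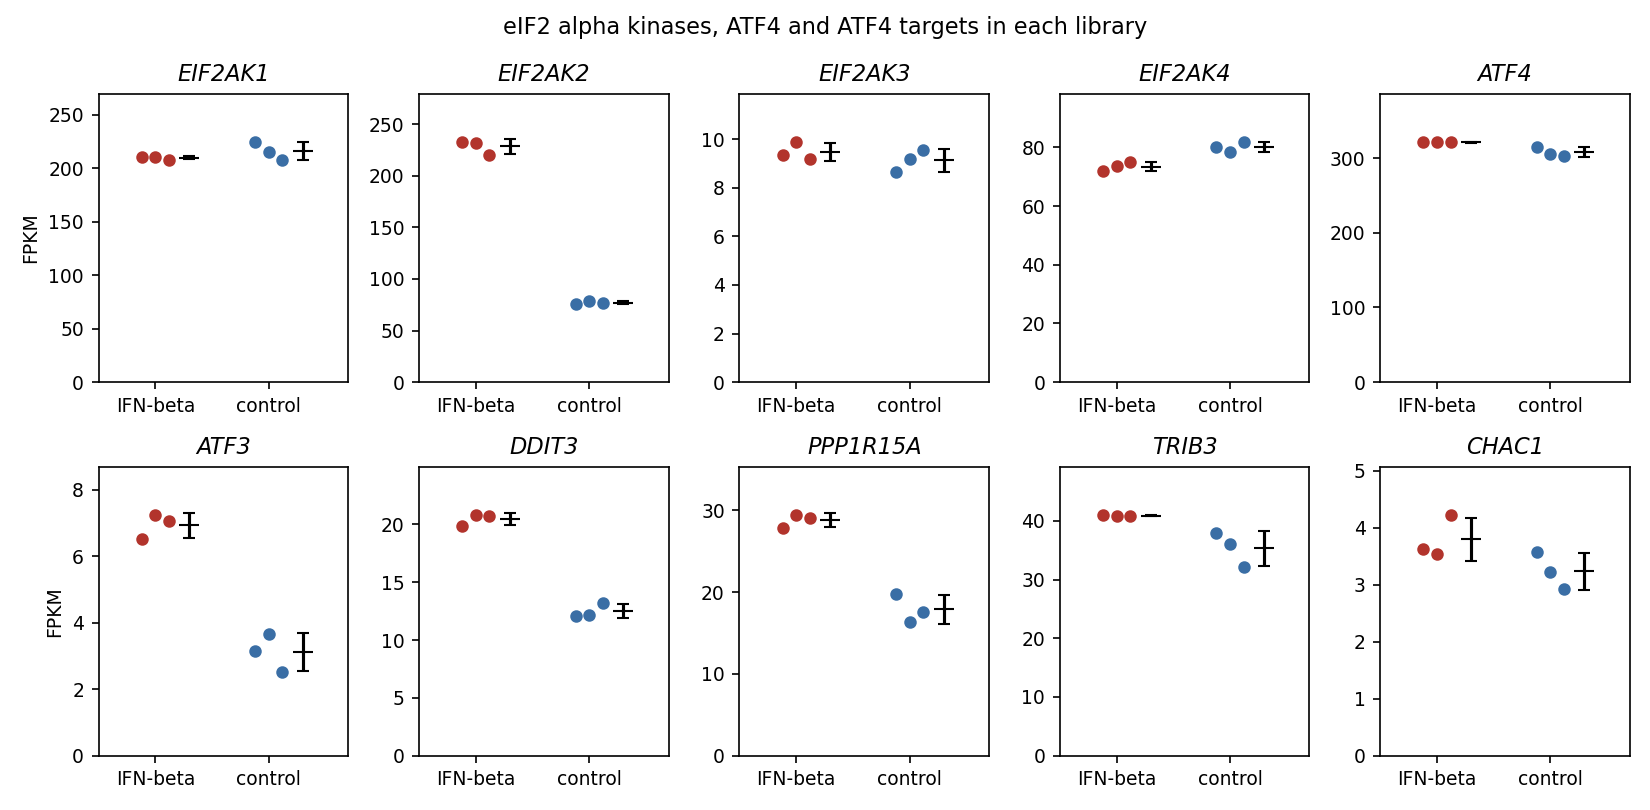
FPKM of the 10 genes in each of the 3 IFN-beta libraries (red) and 3 control libraries (blue), with the mean and SD beside the points; each panel has its own axis from 0. EIF2AK2, ATF3, DDIT3 and PPP1R15A separate widely, with EIF2AK2 at 220.3 to 233 FPKM in IFN-beta libraries and 76.0 to 78.6 FPKM in control libraries, while EIF2AK1, EIF2AK3 and CHAC1 overlap.

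Among the kinases, EIF2AK2 was the one that rose. Its product, PKR, is activated by double-stranded RNA such as viral replication intermediates. The gene (ENSG00000055332, chr2:37099210-37157065, minus strand) holds the GAAANNGAA match in the window shown above, and 4.05% of its exon sequence is shared with a gene on the opposite strand. It had 233, 232 and 220.3 FPKM in IFN-beta libraries, against 76.0, 78.6 and 76.6 FPKM in control libraries. Every IFN-beta library lay far above every control library, and the range within each group was small beside the distance between them. The difference was 2.96-fold, a log2 change of 1.56 ± 0.037 (SE; 95% interval 1.48 to 1.64; limma adjusted p = 4.48e-09), and it lay between 1.54 and 1.59 when any single library was left out. Between 5080 and 18041 reads stood behind each value.

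EIF2AK4 fell slightly. Its product, GCN2, senses uncharged tRNA during amino acid shortage (ENSG00000128829, chr15:39934115-40035591, plus strand). It had 72.0, 73.6 and 74.9 FPKM in IFN-beta libraries, against 80.3, 78.6 and 82.0 FPKM in control libraries. The groups did not overlap, but the gap between them was narrow, 74.9 against 78.6 FPKM. The log2 change was -0.13 ± 0.037 (95% interval -0.21 to -0.04, limma adjusted p = 0.0221). The call did not hold when the libraries were rescaled to equal FPKM sums (log2 change -0.08, adjusted p = 0.103), or without IFN-beta replicate 1 (adjusted p = 0.088) or IFN-beta replicate 2 (adjusted p = 0.069).

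No change passed the test for the other two kinases. EIF2AK1, whose product HRI is best known from red cell precursors and also relays mitochondrial stress, is widely expressed (ENSG00000086232, chr7:6022247-6059175, minus strand). It had 211, 211 and 208 FPKM in IFN-beta libraries, against 225, 215 and 208 FPKM in control libraries. The groups met at 208 FPKM, and the log2 change was -0.04 ± 0.038 (95% interval -0.13 to 0.05, limma adjusted p = 0.437). EIF2AK3 encodes PERK, the kinase of the endoplasmic reticulum membrane (ENSG00000172071, chr2:88556741-88627464, minus strand). It had 9.34, 9.9 and 9.17 FPKM in IFN-beta libraries, against 8.64, 9.19 and 9.57 FPKM in control libraries. These ranges overlapped, and the log2 change was 0.05 ± 0.065 (95% interval -0.1 to 0.2, limma adjusted p = 0.568). Both intervals end far below the interval of EIF2AK2. In GENCODE 29, both genes share exon sequence with a gene on the opposite strand, 9.59% of it for EIF2AK1 and 15.1% for EIF2AK3. The positions of both in GENCODE 29 differ from those deposited. The counting's use of strand is not given in the sources used here.

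With EIF2AK2 the make-up of the kinase transcripts shifted, which is given here as values with no test. FPKM is scaled per length, so levels of different genes can be set side by side. The 4 kinases summed to 525, 526 and 512 FPKM in IFN-beta libraries, against 389.5, 381 and 376 FPKM in control libraries. EIF2AK2 held 44.4%, 44.0% and 43.0% of that sum in IFN-beta libraries and 19.5%, 20.6% and 20.4% in control libraries, a difference of 23.6 percentage points. EIF2AK1 held 40.3% ± 0.28 in IFN-beta cells and 56.4% ± 1.2 in control cells (SD, n = 3 each). EIF2AK4 held 14.1% ± 0.47 and 21.0% ± 0.68 in the same groups, and EIF2AK3 held 1.82% ± 0.057 and 2.39% ± 0.16. The sum without EIF2AK2 was 292, 294 and 292 FPKM in IFN-beta libraries, against 314, 303 and 299.5 FPKM in control libraries, so the larger total came from EIF2AK2. In order of level, EIF2AK2 stood above EIF2AK1 in all IFN-beta libraries, and EIF2AK4 and EIF2AK3 followed with ranges that did not meet. In control libraries EIF2AK1 stood first and EIF2AK3 last, while EIF2AK4 and EIF2AK2 met at 78.6 FPKM and were not separated. This order depends on the gene lengths the authors used: with reads divided by each gene's longest coding transcript, EIF2AK2 held 40.4% ± 0.76 in IFN-beta cells and 17.9% ± 0.48 in control cells, and EIF2AK4 held 21.5% ± 0.65 and 30.8% ± 0.83.

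**Figure D2:**
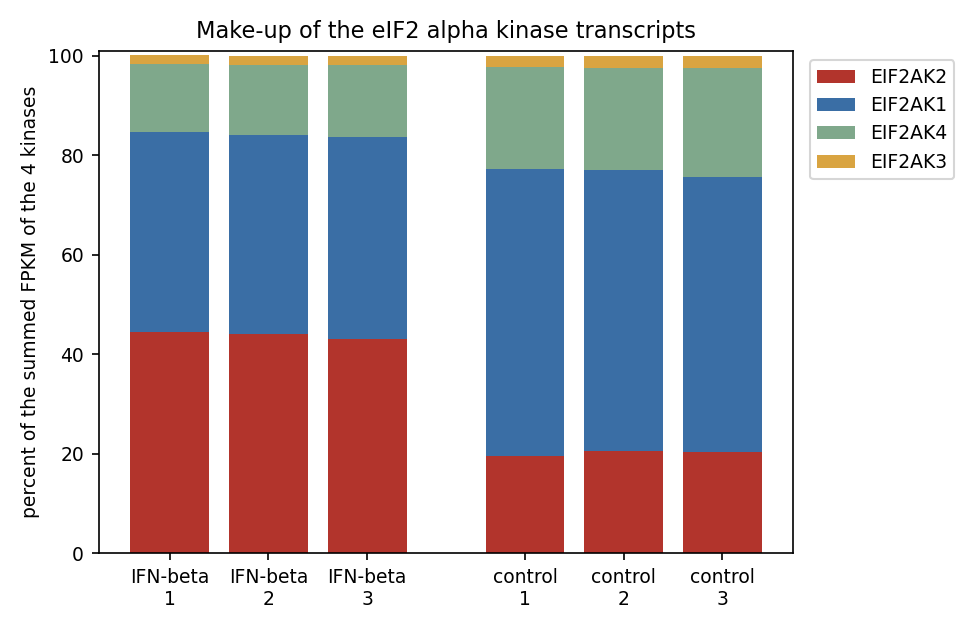
Share of each kinase in the summed FPKM of the 4 eIF2 alpha kinases, in percent, for the 3 IFN-beta libraries and then the 3 control libraries. The EIF2AK2 block takes 43.0% to 44.4% of each IFN-beta bar and 19.5% to 20.6% of each control bar.

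ATF4, the transcription factor whose translation rises when eIF2 is phosphorylated, was the most abundant member in both groups (ENSG00000128272, chr22:39519672-39522683, plus strand). It had 321, 321 and 322 FPKM in IFN-beta libraries, against 315, 306 and 303 FPKM in control libraries. All IFN-beta libraries lay above all control libraries, by a margin of 321 to 315 FPKM at the closest. The log2 change of 0.06 ± 0.033 did not pass the test (95% interval -0.01 to 0.14, limma adjusted p = 0.159). It did pass when the libraries were rescaled to equal FPKM sums, at a log2 change of 0.11 (adjusted p = 0.0298). The ATF4 pseudogenes in the table, ATF4P1 to ATF4P4, held at most 14 reads in any library, against 9058 or more for ATF4.

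Of the ATF4 targets, ATF3 rose most. It encodes a stress-induced factor of the ATF/CREB family that mostly represses transcription (ENSG00000162772, chr1:212565334-212620777, plus strand). It had 6.51, 7.24 and 7.06 FPKM in IFN-beta libraries, against 3.14, 3.67 and 2.52 FPKM in control libraries. The groups were far apart at a low level, with 80 to 265 reads behind each value. The difference was 2.23-fold, a log2 change of 1.05 ± 0.12 (95% interval 0.78 to 1.32, limma adjusted p = 1.57e-04), and 0.93 without control replicate 3, its lowest library.

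DDIT3 and PPP1R15A rose by similar amounts. DDIT3 encodes CHOP, a factor that promotes cell death when stress persists (ENSG00000175197, chr12:57516588-57521737, minus strand). It had 19.9, 20.8 and 20.7 FPKM in IFN-beta libraries, against 12.1, 12.2 and 13.2 FPKM in control libraries. Libraries of each group lay close together and the groups did not overlap. The difference was 1.64-fold, a log2 change of 0.69 ± 0.054 (limma adjusted p = 1.80e-05). DDIT3 is uncertain in another way, since 31.6% of its exon sequence overlaps a gene on the opposite strand and 8.03% a gene on its own strand. Reads of the former cannot be told apart where strand was not used, and strand does not separate reads of the latter. PPP1R15A encodes GADD34, which brings a phosphatase to eIF2 alpha and so closes the response (ENSG00000087074, chr19:48872421-48876058, plus strand). It had 27.8, 29.4 and 29.1 FPKM in IFN-beta libraries, against 19.8, 16.3 and 17.5 FPKM in control libraries. No control library reached the lowest IFN-beta library, and the difference was 1.61-fold, a log2 change of 0.68 ± 0.07 (limma adjusted p = 9.30e-05).

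TRIB3 and CHAC1 moved least. TRIB3 encodes a pseudokinase known to restrain ATF4 and CHOP (ENSG00000101255, chr20:362835-397559, plus strand). It had 41.0, 40.8 and 40.9 FPKM in IFN-beta libraries, against 37.9, 36.0 and 32.1 FPKM in control libraries. The IFN-beta libraries were nearly equal and the control libraries spread below them, with control replicate 3 lowest. The log2 change was 0.21 ± 0.06 (limma adjusted p = 0.0196), and 0.14 without control replicate 3 (adjusted p = 0.0242). The call was lost when any IFN-beta library was left out, with adjusted p from 0.0533 to 0.0569. CHAC1 encodes an enzyme that degrades glutathione and is a common marker of ATF4 activity (ENSG00000128965, chr15:40952962-40956512, plus strand). It had 3.62, 3.54 and 4.22 FPKM in IFN-beta libraries, against 3.57, 3.22 and 2.92 FPKM in control libraries. The groups overlapped and the log2 change was 0.2 ± 0.1 (95% interval -0.04 to 0.44, limma adjusted p = 0.157), on 90 to 154 reads a library. Of the genes with the TGATGNAA match in a window, ATF3 rose, with the match in only some of its windows, and CHAC1 did not pass the test.

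**Figure D3:**
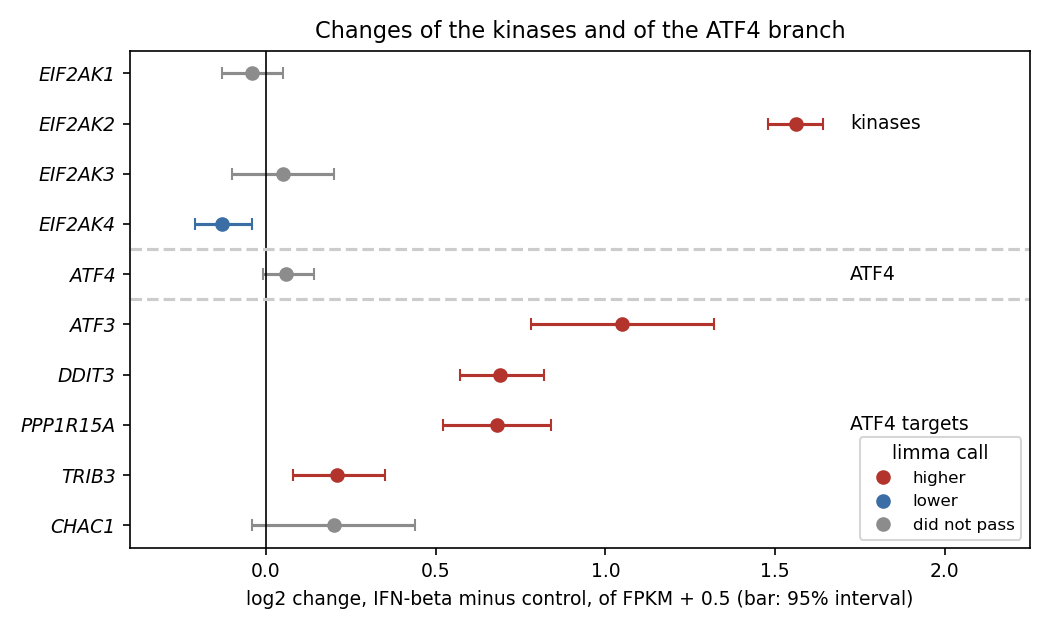
Log2 change of FPKM + 0.5, IFN-beta minus control, for each of the 10 genes, with its 95% interval; red marks genes called higher, blue lower and grey those that did not pass limma at an adjusted p of 0.05. EIF2AK2 stands alone among the kinases at 1.56, ATF4 lies at 0.06, and the 5 targets run from 0.2 to 1.05.

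By deposited FPKM, TRIB3 stood highest of the targets in IFN-beta libraries, followed by PPP1R15A, DDIT3, ATF3 and CHAC1, with no overlap between neighbours. In control libraries the order was also TRIB3, PPP1R15A and DDIT3, but ATF3 at 2.52 to 3.67 FPKM and CHAC1 at 2.92 to 3.57 FPKM were not separated. The top of this order also rests on the authors' gene lengths. With reads scaled by the longest coding transcript and by depth, which is the FPKM scale with other lengths, PPP1R15A lay at 23.9 to 25.3 and TRIB3 at 22.8 to 22.9 in IFN-beta libraries, while TRIB3 lay above PPP1R15A in every control library.

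The substrate of the kinases and its exchange factor changed little. Of 9 genes for eIF2, eIF2B and EIF5, none rose and 1 fell, with a median log2 change of 0.03, and 1 rose without control replicate 3. Over all tested genes, 22.5% rose and 19.9% fell, shares to be set beside the counts of this list and those below. The gene that fell was EIF5, the GTPase-activating protein of eIF2, at 436 FPKM in IFN-beta cells and 479 FPKM in control cells (log2 change -0.13, limma adjusted p = 0.0107). This call was lost under equal FPKM sums (adjusted p = 0.0621), where the number lower was 0. The number lower was 2 after quantile normalization, with median-of-ratios size factors or after rescaling without mitochondrially encoded genes. EIF2B4, a subunit of eIF2B named after its value was seen, was at -0.14 and did not pass (adjusted p = 0.0662). Its groups did not overlap. EIF2S3, the gamma subunit of eIF2, had 385 FPKM in IFN-beta cells and 377 FPKM in control cells and did not pass (adjusted p = 0.531).

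The phosphatase that reverses the kinases was mixed. PPP1R15B, the constitutive counterpart of PPP1R15A, rose with 19.7, 18.7 and 19.3 FPKM in IFN-beta libraries, against 15.8, 15.5 and 14.1 FPKM in control libraries (log2 change 0.34, limma adjusted p = 0.00162). PPP1R15A made up 58.5%, 61.1% and 60.1% of the summed FPKM of PPP1R15A and PPP1R15B in IFN-beta libraries and 55.6%, 51.3% and 55.4% in control libraries. Among the catalytic subunits, PPP1CA fell (log2 change -0.28, adjusted p = 0.00123). PPP1CB was lower at -0.14 (adjusted p = 0.0373), a call lost without control replicate 3 (adjusted p = 0.0562). It was also lost without 3 other libraries in turn, IFN-beta replicates 2 and 3 and control replicate 2 (adjusted p up to 0.14). With equal FPKM sums PPP1CB was at -0.089 (adjusted p = 0.144). The call was lost as well without a filter on low values (0.0844), without a trend in eBayes (0.0975) and with a replicate block (0.0604). PPP1CC, at -0.07, did not pass (adjusted p = 0.151).

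Genes known to activate or restrain the kinases mostly fell: 6 of 9 were lower and 1 was higher, with a median log2 change of -0.25. The shares over all tested genes were 19.9% lower and 22.5% higher. ADAR, which edits double-stranded RNA and thereby keeps it from PKR, was the one that rose. It had 269, 263 and 257 FPKM in IFN-beta libraries, against 118, 115 and 108 FPKM in control libraries, a log2 change of 1.21 ± 0.043 (limma adjusted p = 8.74e-08). OMA1, the mitochondrial protease at the head of the path to HRI, fell to 16.3 FPKM in IFN-beta cells, against 22.5 FPKM in control cells (log2 change -0.46, adjusted p = 0.00201). IMPACT, an inhibitor of GCN2 activation, fell to 24.2 FPKM in IFN-beta cells, against 32.5 FPKM in control cells (log2 change -0.42, adjusted p = 4.46e-04). GCN1, the partner GCN2 needs on ribosomes, had 132 FPKM in IFN-beta cells and 125 FPKM in control cells and did not pass (adjusted p = 0.222), although it was higher without control replicate 1 (log2 change 0.14, adjusted p = 0.0403). The list holds activators and inhibitors alike, so its median has no single sense for kinase activity.

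ATF4's partners and regulators held 3 genes that rose and 1 that fell among 6, against 22.5% and 19.9% of all tested genes. Their median log2 change was 0.11. ATF5, a related factor that is also translated more under stress, had 44.7, 46.9 and 42.6 FPKM in IFN-beta libraries, against 28.3, 25.2 and 27.6 FPKM in control libraries (log2 change 0.72 ± 0.057, limma adjusted p = 1.98e-05). NUPR1, a small stress-induced chromatin protein, was called higher at 0.707 FPKM in IFN-beta cells and 0.306 FPKM in control cells (log2 change 0.59, adjusted p = 0.0209). It reached the filter of 0.5 FPKM only through its IFN-beta libraries, with 0.198 to 0.378 FPKM in control libraries. With a filter of 2 FPKM, 2 genes of this list were called higher. CEBPB, a dimer partner of ATF4, was called higher by 0.22 (adjusted p = 0.0196). Neither call was firm. That of NUPR1 was lost without control replicate 3 (adjusted p = 0.0628), IFN-beta replicate 2 (0.0677) or IFN-beta replicate 3 (0.0507), and after quantile normalization (0.0501). That of CEBPB was lost without IFN-beta replicate 3 (0.0728), without a filter on low values (0.0566) or without a trend in eBayes (0.0533). QRICH1, a further transcriptional partner of the response, was at 0.01 on the log2 scale, which did not pass (adjusted p = 0.912). The gene called lower, named here after its value was seen, was BTRC, of the ubiquitin ligase that degrades ATF4 (log2 change -0.16, adjusted p = 0.0484), and the call was lost when any single library was left out.

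The wider ATF4 targets did not share one direction. Of 48 genes in 4 lists, 44 were tested, 14 rose and 13 fell, and their median log2 change was -0.02. The shares over all tested genes, to be set beside each of these lists, were 22.5% higher and 19.9% lower. Among the genes of amino acid synthesis, 3 of 11 tested rose and 5 fell (median -0.11). GPT2, an alanine aminotransferase, and MTHFD2, of mitochondrial one-carbon metabolism, rose by 0.34 and 0.33 on the log2 scale (limma adjusted p = 0.00173 and 4.65e-04). PYCR1, of proline synthesis, fell to 20.3 FPKM in IFN-beta cells, against 25.4 FPKM in control cells (adjusted p = 0.00114). SHMT2, which feeds serine into the one-carbon pool, had 133 FPKM in IFN-beta cells and 139 FPKM in control cells and did not pass (adjusted p = 0.388).

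Among 8 amino acid transporters, 3 rose and 2 fell (median 0.08), against 22.5% and 19.9% of all tested genes. SLC38A2, which carries small neutral amino acids, and SLC1A5, the glutamine carrier ASCT2, each had a log2 change of 0.3 (limma adjusted p = 5.39e-04 and 0.0042). SLC7A5, the leucine carrier LAT1, was called lower by -0.23 (adjusted p = 0.016), which did not hold without IFN-beta replicate 2 (0.0659) or control replicate 2 (0.0582). The SLC7A5 call was also lost without a filter on low values (0.0641) or without a trend in eBayes (0.0543). SLC7A1, the arginine carrier, was not called at -0.1 (adjusted p = 0.122), but was lower without control replicate 3 (log2 change -0.15, adjusted p = 0.00991). The number of transporters called lower lay between 0 and 3 when single libraries were left out. It was 0 without a filter on low values or without a trend in eBayes.

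Of 13 genes that charge or export tRNA, 1 rose and 5 fell (median -0.05), against 22.5% and 19.9% of all tested genes. WARS1, the tryptophanyl-tRNA synthetase, which is also known as an interferon-induced gene, rose to 584, 664 and 620.2 FPKM in IFN-beta libraries, against 177, 171 and 159.5 FPKM in control libraries (log2 change 1.87 ± 0.056, limma adjusted p = 2.42e-08). LARS1 and EPRS1, the synthetases for leucine and for glutamate and proline, fell with log2 changes of -0.36 and -0.35 (adjusted p = 6.15e-04 and 8.24e-05). TARS1, for threonine, was at -0.07 and did not pass (adjusted p = 0.28), except without control replicate 1 (adjusted p = 0.0471).

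The stress and secreted targets of ATF4 and CHOP differed from those lists in their counts. Of 12 tested, 7 rose and 1 fell, against 22.5% and 19.9% of all tested genes. Their median log2 change was 0.38, between 0.3 and 0.43 under the other scalings. GDF15, a stress cytokine, had 3.36, 4.2 and 4.88 FPKM in IFN-beta libraries, against 0.588, 0.676 and 0.505 FPKM in control libraries, a log2 change of 2.08 ± 0.15 (limma adjusted p = 8.90e-06). VEGFA, the angiogenic growth factor, averaged 102 FPKM in IFN-beta cells and 46.5 FPKM in control cells (log2 change 1.12, adjusted p = 3.21e-07). BBC3, which encodes the death-promoting BCL2-family protein PUMA, averaged 3.49 FPKM in IFN-beta cells and 1.51 FPKM in control cells (log2 change 0.99, adjusted p = 1.01e-04). HERPUD1, which acts in degradation at the endoplasmic reticulum, was at -0.02 and did not pass (adjusted p = 0.717). The gene that fell, named after its value was seen, was DDIT4, an inhibitor of mTORC1, with 117, 119.9 and 117 FPKM in IFN-beta libraries, against 200.2, 158 and 141 FPKM in control libraries (log2 change -0.48, adjusted p = 0.00597). Without IFN-beta replicate 1 the number called lower was 2. Several of these genes answer to other factors as well, among them p53 and HIF1, and the lists do not separate such inputs.

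The other branches of the unfolded protein response, which run through IRE1 and ATF6 and not through eIF2, were set beside the PERK gene. Of 18 genes, 13 rose and 1 fell, against 22.5% and 19.9% of all tested genes. Their median log2 change was 0.22, and between 10 and 13 rose when single libraries were left out. DNAJB9, a cochaperone made under IRE1, had 15.8, 13.8 and 16.2 FPKM in IFN-beta libraries, against 8.67, 10.7 and 10.7 FPKM in control libraries (log2 change 0.59 ± 0.094, limma adjusted p = 0.00118). CALR, the lectin chaperone calreticulin, averaged 1393 FPKM in IFN-beta cells and 1031 FPKM in control cells (log2 change 0.44, adjusted p = 2.49e-04). ERN1, the gene of IRE1 itself, averaged 10.5 FPKM in IFN-beta cells and 7.69 FPKM in control cells (log2 change 0.42, adjusted p = 5.66e-04). SEC61B, a subunit of the translocon, was at -0.13 and did not pass (adjusted p = 0.176), although it was lower without control replicate 1 (log2 change -0.21, adjusted p = 0.0103). The gene that fell, named after its value was seen, was SEL1L, of the degradation complex at the endoplasmic reticulum (log2 change -0.21, adjusted p = 0.00573). No gene of this list moved by more than 0.59 on the log2 scale.

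**Figure D4:**
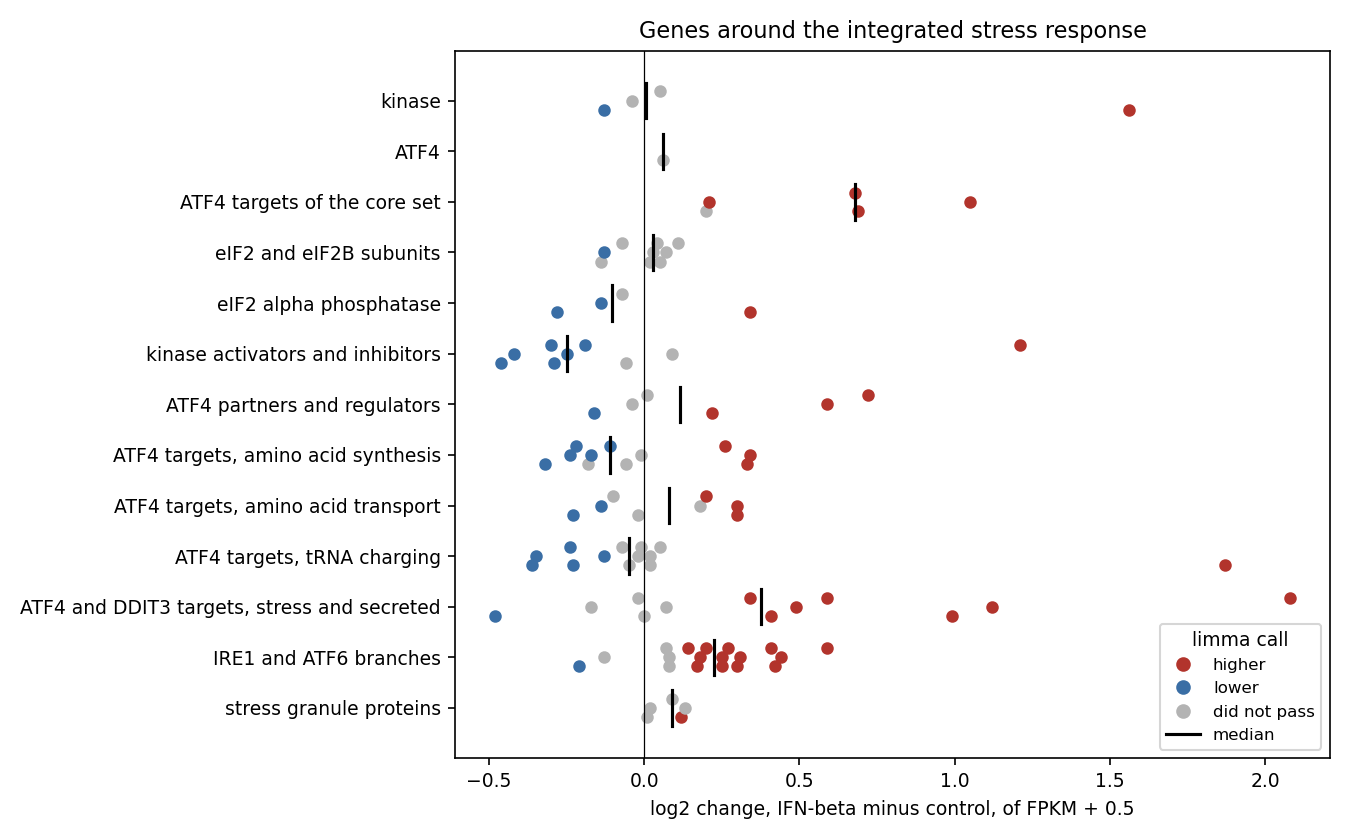
Log2 change of FPKM + 0.5, IFN-beta minus control, of each tested gene (points) in the groups of genes around the integrated stress response, with the median of each group as a black bar; red marks genes called higher, blue lower and grey those that did not pass. The core targets (median 0.68), the stress and secreted targets (0.38) and the IRE1 and ATF6 branches (0.22) lie mostly to the right, the kinase activators and inhibitors (-0.25) mostly to the left, and the metabolic ATF4 targets on both sides of 0.

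Stress granules form when eIF2 phosphorylation stalls initiation. Of 5 genes for their core proteins, 1 was called higher and none lower (median log2 change 0.09), against 22.5% and 19.9% of all tested genes. The number called higher was 3 with equal FPKM sums and 2 without control replicate 3. It was 0 after quantile normalization or rescaling without mitochondrially encoded genes. The call was TIAL1, an RNA-binding protein, at 112 FPKM in IFN-beta cells and 103 FPKM in control cells (log2 change 0.12, limma adjusted p = 0.021), lost without IFN-beta replicate 1, IFN-beta replicate 2 or control replicate 2 (adjusted p from 0.0713 to 0.0765). CAPRIN1, a partner of G3BP1, had 471 FPKM in IFN-beta cells and 467 FPKM in control cells and did not pass (adjusted p = 0.779).

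The genes whose levels lay nearest to those of EIF2AK2 over the 6 libraries, by Euclidean distance on log2(FPKM + 0.5), were IFITM2, RNF213 and FOSL1, at distances of 0.208, 0.28 and 0.625. IFITM2 had 212, 233 and 230.3 FPKM in IFN-beta libraries, against 80.9, 75.7 and 81.8 FPKM in control libraries. The genes nearest to ATF4 were HNRNPU, CTTN and FKBP4, at distances of 0.0448, 0.0933 and 0.11. Likeness here is of level and difference alone, over 2 groups.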

How the data were processed

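RNA-seq of 3 IFN-beta and 3 control libraries was analysed from 1 table of FPKM values that the authors deposited. Sample titles gave the group and the replicate number. Whether the replicates are separate cultures is not stated; p-values then measure only how these libraries spread, which may be technical. The labels give the batch as unknown. Per the labels' protocols, total RNA went into the libraries. TRIzol is named in the treatment protocol and an RNeasy kit in the extract protocol, and CLC Genomics Workbench 11.0.1 is named with no step. The mouse builds GRCm38 and mm10 are named, per the submitters' processing notes, but all 60671 identifiers are human. Not given in the sources used here are the aligner, the counting program and how strand was handled. Coordinates are as deposited, with the human build GRCh38 inferred: 4 of the 10 genes have the same start and end in GENCODE 29. Shared exon sequence and longest coding transcripts were taken from GENCODE 29, which may differ from the annotation the authors used.

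The test was limma's (version 3.58.1, R 4.3.3; lmFit, then eBayes with a trend, two-sided) on log2(FPKM + 0.5), for genes whose mean over all libraries reached 0.5 FPKM. These changes understate those of genes at low levels. Whole reads were recovered from the steps of the deposited FPKM for 30506 of the 30507 genes above 0. A fit within 0.01 reads was the rule for accepting a gene. Library totals were inferred from the same steps, so the recovered sums of 99.72% to 99.73% of the totals are not an independent check. The totals gave the depth, and the recovered reads served for read numbers and for an alternative fit with limma's voom. Reads are not independent molecules. The members and the gene lists were chosen with earlier results of these data known. The lists came from textbook knowledge, and of each list up to 3 called genes by size of log2 change and 1 gene not called by mean FPKM are named, besides all 10 members and the 3 genes nearest to EIF2AK2 and to ATF4. Promoter windows are from RefSeq. A comparison of the kinase proteins was not run. Alternatives were other pseudocounts, filters, scalings, variance models, a replicate block and leaving out each library. Python 3.11.15, pandas 2.3.3 and numpy 2.4.6 were used.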

Additional observations from a re-analysis of the deposited data

How the results depend on the processing

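The changes of EIF2AK2, ATF3, DDIT3 and PPP1R15A kept their direction and passed the threshold in all 18 alternative fits. Of 6431 genes called, 53.2% were higher; this share was 63.2% with libraries rescaled to equal FPKM sums and 41.3% after quantile normalization, which moved the median log2 change of all genes to 0.054 and -0.05. Over all fits, 5166 to 6874 genes and 4 to 6 members were called, and voom on recovered reads called 6874 genes. With equal FPKM sums, 1 kinase was called in place of 2, EIF2AK4 was at -0.08 (adjusted p = 0.103), ATF4 passed at 0.11 (adjusted p = 0.0298), and EIF2AK1 and HERPUD1 changed sign to 0.0064 and 0.023. Without a trend in eBayes, 1 kinase was called, EIF2AK4 was at -0.13 (adjusted p = 0.0634) and TRIB3 at 0.21 (adjusted p = 0.0535), and without a filter on low values TRIB3 was at 0.21 (adjusted p = 0.0559). The causes were not tested. Quantile normalization turned EIF2AK3 to -0.0091. When single libraries were left out, 1 to 2 kinases were called, EIF2AK4 lay between -0.14 and -0.11 and TRIB3 between 0.14 and 0.26. Genes that were near 0 and not called also changed sign. QRICH1 was at -0.025 after quantile normalization, -0.0046 with median-of-ratios size factors, -0.016 after rescaling without mitochondrially encoded genes, and between -0.063 and 0.052 with single libraries left out, below 0 without IFN-beta replicate 2 (-0.0035) or control replicate 3. CAPRIN1 was at -0.00052 with median-of-ratios size factors, -0.012 after rescaling without mitochondrially encoded genes and between -0.0085 and 0.026 with single libraries left out, below 0 without control replicate 1. With reads divided by the longest coding transcript, an alternative chosen after seeing the data, the difference in the EIF2AK2 share was 22.5 percentage points. The stricter motifs GAAACNGAA and TGATGCAAT stood in 1.87% and 0.236% of all windows and in no member's. Same-numbered libraries did not deviate together (correlations of -0.05, -0.1 and -0.06), so no pairing by replicate number was seen. With 3 libraries per group this cannot exclude a shared batch. In a limma fit with a replicate block 5817 genes were called, EIF2AK4 had an adjusted p of 0.045 and TRIB3 of 0.025. Among the 10 members, ATF3 and CHAC1 had the fewest reads, 80 and 90 in their shallowest libraries.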

Other observations

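The terms the authors deposited beside each gene hold further views of the pathway, looked up after seeing the data. Under "integrated stress response signaling" 19 of 24 genes were tested, 11 were called higher and 2 lower, with a median log2 change of 0.22. The shares over all tested genes were 22.5% higher and 19.9% lower. Many of them encode bZIP factors, the family of ATF4. BATF2, an interferon-responsive one, had 16.6, 19.8 and 19.1 FPKM in IFN-beta libraries, against 0.121, 0.0795 and 0.0462 FPKM in control libraries (log2 change 5.03, limma adjusted p = 2.06e-09). BATF2 passed the filter on low values only through its IFN-beta libraries. FOSL1 and NFE2L3 were higher by 1.27 and 1.2 (adjusted p = 2.56e-06 and 9.27e-08), JUN by 0.8 (adjusted p = 2.73e-04), and CEBPA was at -0.45 (adjusted p = 0.00668).

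The term for the GCN2 response to amino acid deficiency gave 79 of 98 tested genes lower and 4 higher, with a median log2 change of -0.35. Ribosomal protein genes made up 82 of those 98, with 74 lower and none higher (median -0.38). The other 16 held 4 higher and 5 lower, with a median of 0.02. Under the term for the HRI response to haem deficiency, 6 of 15 genes were higher and none lower (median 0.06). Under the term for gene expression regulated by PERK, 8 of 31 were higher and 5 lower (median 0.02), near the shares over all tested genes. Those shares, which apply to all the terms here, were 22.5% higher and 19.9% lower. These terms share genes with the members described above.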
